A study of Homo sapiens with 12 samples.

Results

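The resting microRNA repertoire of SUM159 control cells comprised 165 of the 851 human microRNA names on the array. SUM159 is a human triple-negative breast cancer line of the basal B, mesenchymal type. Members were chosen by the deposited detection flag: a human name had to be detected on all 3 arrays of the cells with control shRNA and vehicle. They were thus selected on the same signals that are described here, so what follows is a description with no test and no comparison between groups.

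The study placed 12 arrays in 4 groups: SUM159 cells with a control or a Dicer shRNA, each given vehicle or 0.5 mM metformin. The 3 arrays used here carried total RNA from cells growing logarithmically in medium with serum, insulin and hydrocortisone. These cells stably held a scrambled control shRNA in the lentiviral vector pLKO.1, and PBS was their vehicle for 24 h. An shRNA is itself processed by Dicer, and all groups of the study carried one, so no array shows SUM159 cells without a vector. Whether the stable line was 1 clone or a pool is not given in the sources used here. The labels call the 3 replicates biological, all 3 lay on 1 slide, and their number limits the precision of every value.

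MicroRNAs are short RNAs that guide Argonaute proteins to messenger RNAs and lower their stability and translation. Most are cut from a hairpin by Drosha in the nucleus and Dicer in the cytoplasm, and 1 strand, the guide, is usually kept while the other, the passenger strand marked by an asterisk in older names, is degraded. Pairing with targets rests mainly on the seed, bases 2 to 8, so microRNAs with the same seed form a family. Many lie in genomic clusters and are made from 1 shared transcript.

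The mature sequences of 10 of the brightest members are shown first because they lead the order of signal once the withdrawn or reassigned entries described below are set aside. Their base composition returns further on beside the differences between arrays. Seeds are in capitals, and names are given without the species prefix. All sequences and positions come from RefSeq (GRCh38.p14), to which 138 of the 165 members were matched.
miR-494: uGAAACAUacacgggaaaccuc
miR-1202: gUGCCAGCugcagugggggag
miR-21: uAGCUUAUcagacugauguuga
miR-1275: gUGGGGGAgaggcuguc
miR-205: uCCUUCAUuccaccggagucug
miR-638: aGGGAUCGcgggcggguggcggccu
miR-1225-5p: gUGGGUACggcccagugggggg
miR-24: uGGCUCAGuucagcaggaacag
miR-22: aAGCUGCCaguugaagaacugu
miR-1268: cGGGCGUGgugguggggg
Among the 136 members with a sequence that are counted in the shares below, none of these 10 shares its seed with another. miR-494 lies at chr14:101029681-101029702 (plus strand), in the imprinted cluster of chromosome 14. miR-21 lies at chr17:59841273-59841294 (plus strand) within the span of VMP1, and miR-205 at chr1:209432166-209432187 (plus strand) within that of its host transcript MIR205HG.

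The next sequences are shown because each block has 1 seed, so that its members can share targets wherever they lie in the genome. The let-7 members differ from one another in few bases, and probes for such near-identical sequences may share signal, which was not tested.
let-7b: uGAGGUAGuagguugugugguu
let-7c: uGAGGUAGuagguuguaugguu
let-7a: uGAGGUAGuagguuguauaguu
let-7i: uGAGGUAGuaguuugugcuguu
let-7f: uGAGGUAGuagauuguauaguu
let-7g: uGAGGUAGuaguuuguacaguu
miR-23a: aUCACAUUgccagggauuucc
miR-23b: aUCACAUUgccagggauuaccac
miR-320c: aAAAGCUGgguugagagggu
miR-320b: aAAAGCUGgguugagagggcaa
miR-320d: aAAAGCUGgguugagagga
miR-100: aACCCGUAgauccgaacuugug
miR-99b: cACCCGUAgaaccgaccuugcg
miR-99a: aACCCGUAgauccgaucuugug
miR-222: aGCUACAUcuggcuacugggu
miR-221: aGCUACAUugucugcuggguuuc
miR-92a: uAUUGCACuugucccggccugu
miR-25: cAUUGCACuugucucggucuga

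The arrays of replicates 1, 2 and 3 detected 176, 204 and 182 human names. Of the 851 names 639, or 75.1%, were detected on no array, 27 on 1 array and 20 on 2 arrays. The 165 detected on all 3 are 19.4% of the names, and this is the background for the list counts given further on. Replicate 2 alone detected 19 names, against 2 for replicate 1 and 6 for replicate 3. Over the 165 members, log2 signals correlated with r = 0.992 between replicates 1 and 2, 0.975 between 1 and 3 and 0.982 between 2 and 3. Replicate 3 therefore stood somewhat apart, and values on each array are given so that this can be seen.

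Signal was spread over 4.52 orders of magnitude (log10) from the brightest to the dimmest member. All levels are the deposited total gene signal, a linear intensity, with no scaling between arrays. Probes differ in labelling and binding, so an order of names by signal is not an order by number of molecules. The brightest name by far was miR-923, with signals of 107345, 106142 and 101222 on replicates 1, 2 and 3. It took 78.8%, 77.8% and 79.1% of the members' summed signal on these arrays. miR-923 has been withdrawn as a microRNA, and its sequence is that of a ribosomal RNA fragment.

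Altogether 9 members are on the list used here of entries since withdrawn or assigned to fragments of ribosomal, transfer or small nuclear RNA. miR-1300, whose array name carries a version suffix as that of miR-923 does, is not on the list. It stays among the other members, with 0.169 ± 0.0162% of their signal. The 9 were miR-923, miR-720, miR-1308, miR-1274b, miR-1274a, miR-1246, miR-1826, miR-1260 and miR-1280, and they made up 81.2 ± 0.655% (SD, n = 3) of the summed signal. The array holds 11 such names from the list used, and the other 2, miR-886-3p and miR-886-5p, were not detected. After miR-923 the brightest was miR-720, at 1816, 1991 and 1946, followed by miR-1308 at 475, 481 and 499, miR-1274b at 444, 489 and 349 and miR-1274a at 317, 322 and 266. Because 1 entry of ribosomal origin would otherwise fill the sum, every share below is the percentage of the summed signal of the other 156 members on the same array. Errors are SD over the 3 arrays.

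**Figure D1:**
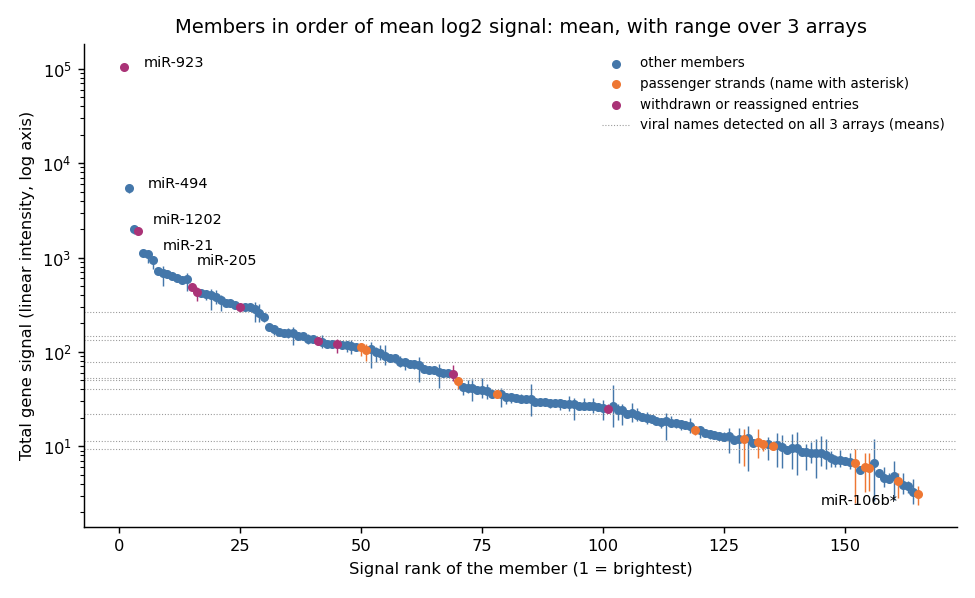
Total gene signal (linear intensity on a log axis) of the 165 members in order of their mean log2 signal, with points for means, vertical lines for the range over 3 arrays and dotted lines for the means of 10 viral names. miR-923 stands at 104903, miR-494 at 5506, and 30 members lie below 10.

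Few members carried most of the signal. The brightest, miR-494, held 21.9 ± 1.02% of it, the 3 brightest held 34.2 ± 0.625% and the 10 brightest 55.5 ± 1.28%. On replicates 1, 2 and 3 it took 8, 8 and 9 members to reach 50% of the sum. The 30 brightest held 80.6 ± 0.619%. At the other end, 30 of the 165 members had a mean signal below 10, and the median mean signal over the 165 was 32.0, the level of miR-17.

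miR-494, a member of the imprinted DLK1-DIO3 region, gave 5686, 6011 and 4819.9 on replicates 1, 2 and 3. Its mean was 5506 ± 616, and the range over arrays overlapped that of no other member. miR-1202, a primate microRNA, followed with 2070.2, 2120.2 and 1766. miR-21, which lowers PDCD4 and is abundant in many tumours, gave 1074, 1039 and 1202, with replicate 3 highest. miR-1207-5p gave 1184, 1199 and 871 and miR-1275 1049.5, 1034 and 751, and both were lowest on replicate 3. miR-21 held 4.43 ± 0.657% of the signal and miR-1207-5p 4.30 ± 0.483%, and their ranges overlapped.

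miR-205, which represses the transcription factors ZEB1 and ZEB2 and marks basal epithelial cells, gave 726, 742 and 715 and held 2.90 ± 0.149%. Its coefficient of variation, 1.86%, was the smallest of the 165. miR-638, within the span of the dynamin gene DNM2 on chromosome 19, gave 769.7, 808 and 497, with replicate 3 well below the others. miR-1225-5p, cut from a short intron of PKD1, gave 661, 722 and 628. miR-1268 gave 629, 689.5 and 445, again lowest on replicate 3.

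Several widely expressed microRNAs came next. miR-24, which restrains cell cycle genes, gave 593, 634 and 671, and miR-23a from the same transcript 561, 624 and 653. miR-22 gave 566, 585 and 590.4, with no array apart from the others. miR-92a of the oncogenic miR-17-92 cluster gave 391, 434 and 434 and miR-19b of the same cluster 315, 314 and 349. let-7b, of the family that represses RAS and HMGA2, gave 324, 375 and 448 and was highest on replicate 3. miR-100, linked to the control of mTOR, gave 321, 345 and 312, and miR-125b, the relative of the worm lin-4, gave 292, 309 and 338.

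The rest of the 30 brightest lay between 205 and 468 on single arrays, apart from the entries already set aside. miR-320c gave 453, 429.9 and 352, miR-575 458, 468 and 279 and miR-188-5p 404, 382 and 273. miR-222, which lowers the cell cycle inhibitor p27, gave 298, 307 and 294, and miR-29a, which lowers collagens, gave 276, 292 and 325. miR-630 gave 341, 312 and 207 and miR-27a 205, 235 and 325. These last members differed in opposite directions on replicate 3, where miR-630 was lowest and miR-27a highest. miR-15b, which lowers BCL2, closed the group with 208, 236 and 260.1.

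Judged by ranges over the arrays, the order of the ranks was only coarsely resolved. Of the 164 pairs of neighbouring ranks, 5 did not overlap over the 3 arrays. These were miR-923 over miR-494, miR-494 over miR-1202, miR-720 over miR-21, miR-1275 over miR-205 and miR-15b over miR-221. The ranges mix unscaled arrays, so a pair can overlap and still keep its order on every array. miR-1207-5p over miR-1275 and miR-24 over miR-23a were such pairs. The median coefficient of variation over the 165 members was 12.9%, against a median stated error of a signal of 9.77%. It was 10.4% for the 100 brightest and 19.9% for the other 65. Without replicate 3 the median over all members was 5.39%.

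Among the 100 brightest, the steadiest after miR-205 were miR-361-5p at 29.6, 30.1 and 29.0, miR-222, miR-22 and miR-130b at 73.4, 75.7 and 72.5. The least steady was let-7f at 21.1, 27.4 and 46.1, with a coefficient of variation of 41.2%. It was followed by miR-572 at 123, 128 and 67.6, let-7i at 33.6, 32.1 and 53.2, miR-671-5p at 88.0, 79.3 and 48.0 and miR-134 at 74.9, 69.3 and 41.5. Both let-7 members were highest on replicate 3, and the other 3 were lowest there.

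Numbers in microRNA names follow the order of their discovery, so high numbers mark late entries. Of the 433 names on the array that are let-7 or numbered below 500, 103 were members (23.8%), and of the 418 from 500 upwards 62 were (14.8%). Without the entries set aside, the 103 early members held 68.0 ± 3.06% of the signal, of which miR-494 alone was 21.9%. The 24 members numbered from 1000 held 24.2 ± 1.73%, and the 29 from 500 to below 1000 held 7.81 ± 1.34%. Among the 10 brightest of the 156, 5 had numbers from 500 upwards, namely miR-1202, miR-1207-5p, miR-1275, miR-638 and miR-1225-5p.

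Grouped by seed, the 136 of the 156 members with a sequence fell into 108 families, which together held 90.9 ± 1.00% of the signal. Of these families, 17 had at least 2 members, and these had 45 members in all. Members without a sequence, such as miR-30d at 123, 127 and 113, enter no family, so both counts are lower limits. The largest shares belonged to seeds with 1 detected member that had a sequence, led by miR-494, miR-1202, miR-21 and miR-1275. Among families of several members with a sequence, the largest was miR-23a and miR-23b, with 2.83%, 2.96% and 3.53% on replicates 1, 2 and 3. miR-23a made up most of it, and miR-23b gave 162, 162 and 169.

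The miR-320 family, whose founding member can reach Dicer without being cut by Drosha, held 2.91 ± 0.109% in miR-320c, miR-320b and miR-320d. miR-320a, which is grouped here by name only, gave 110.5, 112 and 78.6, and with it the 4 miR-320 names held 3.30 ± 0.154%, against 3.11 ± 0.373% for the miR-23 family, a difference smaller than the SD of the latter. miR-320b gave 181, 188 and 150.5 and miR-320d 139, 148 and 153. The let-7 family held 2.22%, 2.42% and 3.56% on replicates 1, 2 and 3, a mean of 2.73 ± 0.722%. let-7b led, followed by let-7c at 109, 124 and 149.7 and let-7a at 72.2, 80.4 and 119, and let-7g was the dimmest at 6.25, 6.14 and 12.9. All 6 members were higher on replicate 3 than on the mean of the other 2 arrays, with a median log2 difference of 0.67.

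The seed of miR-92a and miR-25 held 2.15 ± 0.219%, with miR-25 at 112, 119 and 124. The miR-100 family held 1.94 ± 0.0504%, and its 3 members were far apart, since miR-100 had a mean of 326, miR-99b gave 150.2, 156 and 136 and miR-99a 12.3, 16.3 and 15.4. miR-222 and miR-221 held 1.93 ± 0.129%. The pair miR-19b and miR-19a held 1.60 ± 0.216%, and miR-27a and miR-27b held 1.57 ± 0.403%. The 3 members of the miR-29 family held 1.53 ± 0.266% and were all higher on replicate 3, by a median of 0.42 on the log2 scale.

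**Figure D2:**
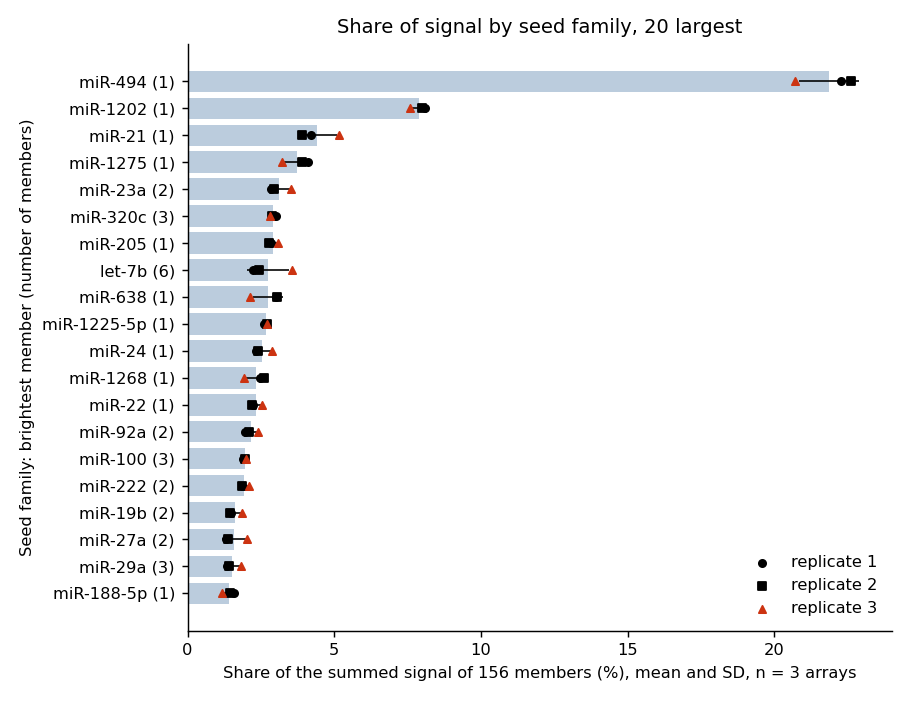
Share of the summed signal of the 156 members (%) for the 20 seed families with the largest share, named by their brightest member. The number of detected members with a sequence is in brackets. Bars are means, whiskers SD over 3 arrays and symbols the single arrays. miR-494 alone held 21.9%, and the let-7 family ran from 2.22% on replicate 1 to 3.56% on replicate 3.

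By genomic cluster, the imprinted cluster on chromosome 14 held the largest share, 22.2 ± 1.06%, yet only 3 of its 53 names on the array were detected on all 3 arrays, or 5.66% beside 19.4% of all names. Besides miR-494 these were miR-134 at 74.9, 69.3 and 41.5 and miR-485-3p at 11.9, 13.2 and 14.9. miR-370 was detected on 2 arrays, and 49 names on none. The signal of miR-494 was 419 ± 82.9 times that of miR-485-3p (SD, n = 3). The cluster's share was thus almost the share of 1 name: without miR-494 in the sum it was 0.381%.

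The clusters miR-23a-27a-24 on chromosome 19 and miR-23b-27b-24 on chromosome 9 held 6.01 ± 0.943% and 3.73 ± 0.447%, and all their names were detected. miR-24 is made by both and is counted in both. On chromosome 19 the 3 names stood within 2.55 ± 0.431-fold of each other, with miR-27a the dimmest. miR-27b, the dimmest on chromosome 9, gave 125, 134 and 149.

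All 6 names of miR-17-92, the cluster on chromosome 13 that promotes proliferation, were detected, and they held 3.53 ± 0.434%. Their signals were far apart: miR-19a gave 65.8, 73.9 and 81.3, miR-17 30.1, 30.3 and 35.7, miR-20a 17.9, 20.4 and 28.8 and miR-18a 8.49, 8.99 and 9.62. The brightest, miR-92a, was 46.5 ± 1.63 times as bright as miR-18a, a ratio that hardly varied between arrays. The related X-linked cluster miR-106a-363 could supply miR-92a and miR-19b too, which makes its 3.00 ± 0.336% mostly the same signal. Of the 6 names listed for it 5 were found on the array, and miR-106a was not among these. Of its own names that were found, miR-18b was detected at 4.10, 4.15 and 5.26, miR-20b on only part of the arrays and miR-363 on none. The third relative, miR-106b-25 in an intron of MCM7, was detected whole, held 1.16 ± 0.131% and had its members within 1.42 ± 0.0278-fold. In it miR-106b gave 82.2, 84.6 and 93.8 and miR-93 77.1, 91.4 and 87.6.

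The cluster miR-100-let-7a-125b on chromosome 11 held 2.92 ± 0.339%, with miR-100 at 3.86 ± 0.881 times let-7a. let-7a has 3 loci and is counted whole in each of its clusters, so this share and ratio need not belong to 1 transcript. The related cluster miR-99a-let-7c-125b on chromosome 21 held 1.82 ± 0.295%, most of it the signal of miR-125b, which both clusters can make. There miR-99a was the dimmest, at 21.5 ± 2.43-fold below miR-125b. The pair miR-221 and miR-222 on the X chromosome held 1.93 ± 0.129%, and miR-222 was 1.64 ± 0.0955 times as bright as miR-221, which gave 171, 190.4 and 189. The let-7a-7b cluster, which also counts let-7a whole, held 1.90 ± 0.471%. miR-29a-29b held 1.36 ± 0.217%, with miR-29b, which has 2 loci and is counted whole for each, at 36.8, 38.2 and 50.01. Signals within 1 cluster therefore ranged from near-equal to 419-fold apart.

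miR-15b-16 was another uneven pair: miR-15b was 13.3 ± 1.38 times as bright as miR-16, which gave 16.3, 15.8 and 21.0 although it can also be made from a second cluster with miR-15a. miR-15a gave 5.84, 10.4 and 13.0. Of the neighbours miR-191 and miR-425, miR-425 gave 24.4, 31.5 and 30.7 while miR-191 was not detected on any array and its passenger strand miR-191* was.

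**Figure D3:**
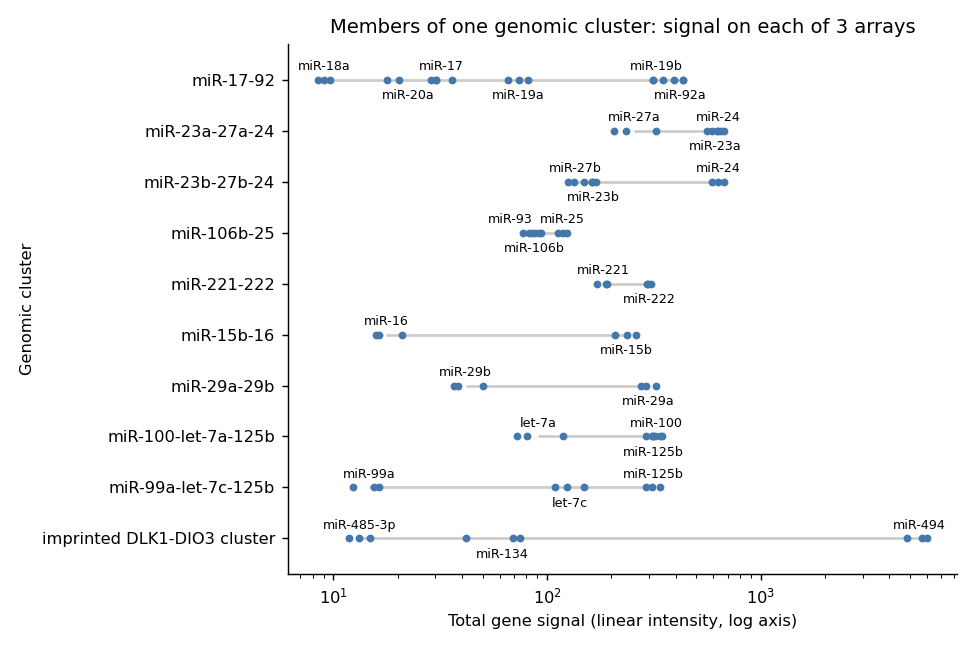
Total gene signal (linear intensity on a log axis) of the detected members of 10 genomic clusters, with 1 point per array and a grey line between the lowest and highest mean. Members of miR-106b-25 lie close together, while miR-17-92 runs from miR-18a near 9.03 to miR-92a near 419 and the imprinted cluster of chromosome 14 from 13.3 to 5506.

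Other clusters gave little or no detected signal, and 75.1% of all human names were likewise detected on no array. The primate cluster on chromosome 19, active in placenta, had 1 of 40 names detected on all 3 arrays (2.5%, beside 19.4% of all names). This was miR-520b at 19.5, 19.5 and 15.4, with miR-516a-5p and miR-520e on 2 arrays. None of the names of the clusters of miR-424 and miR-503, miR-143 and miR-145, miR-183, miR-96 and miR-182, miR-200c and miR-141, miR-200b, miR-200a and miR-429, miR-34b and miR-34c, miR-192 and miR-194, miR-302 and miR-367, miR-132 and miR-212 or miR-144 and miR-451 that the lists hold was detected on any array. Nor were miR-371-3p, miR-372 and miR-373, although miR-371-5p, from the other arm of the same hairpin as miR-371-3p, was detected on 2 arrays.

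Most members with a RefSeq position lay within the span of a longer gene, which for some was their own host transcript, such as MIR205HG for miR-205. The same counts were not made for the other names on the array, so they cannot show a trait particular to the members. Of the 138 matched to a RefSeq position, 117 had 1 locus and 21 several. At 83 the span of a protein-coding gene covered a locus, at 57 that of a long noncoding RNA, and 15 lay in no such span. Some had both, and the strand of the covering gene was not considered.

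Lists of microRNAs known from particular lineages were then compared with the detected names, first those of epithelium and breast. None of the 5 names of the miR-200 family, which holds cells in an epithelial state by repressing ZEB1 and ZEB2, was detected on any array: miR-200a, miR-200b, miR-200c, miR-141 and miR-429. Of 7 other epithelial names 2 were detected on all 3 arrays (28.6%, beside 19.4% of all names), miR-205 and miR-193b, the second at 14.9, 18.5 and 18.8. miR-203, miR-183, miR-96, miR-182 and miR-31 were not detected. miR-205 was thus among the 10 brightest, while most of the other epithelial names were undetected. Of all human names 75.1% were detected on no array, so a name without detection was the usual case.

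Of 3 luminal breast names, miR-342-3p, which lies in the gene EVL, was detected at 58.0, 64.3 and 57.4, and miR-375 and miR-190b were not (33.3%, beside 19.4% of all names). Of 9 names linked to mesenchymal or basal B breast lines, 7 were detected on all 3 arrays (77.8%, beside 19.4% of all names), and they held 7.59 ± 0.629% of the signal. They were miR-22, miR-100, miR-125b, miR-222 and miR-221, given above, with miR-146a at 149.9, 152 and 173 and miR-155 at 41.7, 39.1 and 37.7. Both of the latter are induced by NF-kB. On each array miR-221, miR-146a and miR-155 were dimmer than the brightest viral name, which is given further on. The other 2 names of the list, miR-10b and miR-138, were not detected. These counts describe the arrays and are no independent check of the line's label, since the lists were chosen with earlier results of these data known.

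**Figure D4:**
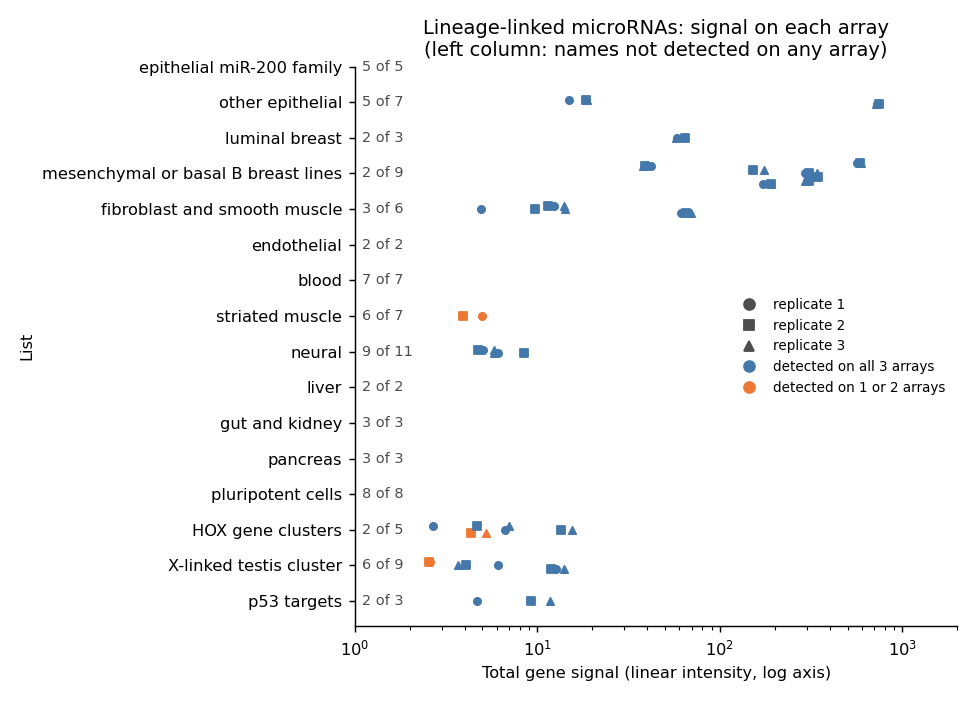
Total gene signal (linear intensity on a log axis) of listed lineage microRNAs on each of 3 arrays, with the number of names detected on no array at the left of each row. The mesenchymal or basal B list has 7 detected names between 37.7 and 590.4, and no miR-200 family member has a signal.

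Names of other cell types were mostly undetected, and 75.1% of all human names were detected on no array. Of 6 fibroblast and smooth muscle names 3 were detected on all 3 arrays (50%, beside 19.4% of all names). They were miR-199a-5p at 61.3, 65.4 and 69.8, miR-214 at 12.3, 11.4 and 14.0 and miR-199a-3p at 4.94, 9.75 and 14.1. miR-143, miR-145 and miR-199b-5p were not detected. None of 7 blood names was detected (miR-451, miR-144, miR-486-5p, miR-223, miR-150, miR-142-3p and miR-142-5p), nor were the endothelial miR-126 and miR-126*. However, miR-150*, the passenger strand named for miR-150 and not on the list, was detected on all 3 arrays at 54.8, 51.1 and 40.5. Of 7 striated muscle names, miR-133a gave 4.96 and 3.90 on 2 arrays, and miR-1, miR-133b, miR-206, miR-208a, miR-208b and miR-499-5p gave no detected signal. Of 11 neural names 2 were detected on all 3 arrays (18.2%, near the share of all names). miR-128 gave 6.09, 8.43 and 5.79 and miR-7 5.05, 4.73 and 5.78. The neural miR-124, miR-9, miR-9*, miR-129-5p, miR-132, miR-137, miR-153, miR-219-5p and miR-218 were not detected.

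The liver names miR-122 and miR-122*, the gut and kidney names miR-192, miR-194 and miR-215 and the pancreatic miR-216a, miR-216b and miR-217 were not detected on any array. Neither were the 8 names of pluripotent cells, miR-302a to miR-302d, miR-367, miR-371-3p, miR-372 and miR-373. These absences stand beside the 75.1% of all human names that were detected on no array. Of 5 names in HOX gene clusters, miR-196b gave 6.62, 13.5 and 15.5 and miR-615-3p 2.69, 4.68 and 6.99, miR-196a was detected on 2 arrays, and miR-10a and miR-10b on none. Of 9 names of an X-linked testis cluster, miR-513a-5p gave 12.6, 11.9 and 14.0 and miR-513b 6.07, 4.07 and 3.68, with miR-513c on 2 arrays and 6 names on none (miR-506, miR-507, miR-508-3p, miR-509-3p, miR-510 and miR-514). Of 3 targets of p53, miR-34a gave 4.64, 9.27 and 11.8, and miR-34b and miR-34c-5p were not detected. Detection on all 3 arrays was thus 40% for the HOX list, 22.2% for the X-linked list and 33.3% for the p53 list, beside 19.4% of all names. A name that was not detected may still be present below the lowest detected signals, which were 2.39, 1.89 and 2.51 on replicates 1, 2 and 3.

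Passenger strands were rarer among the members than other names. Of 171 names with an asterisk 14 were members (8.19%), against 151 of the other 680 (22.2%), and the 14 held 1.53 ± 0.118% of the signal. For 7 of them the guide was a member too. miR-21* gave 115, 119.9 and 81.0, or 0.0966 ± 0.0257 of the signal of miR-21, and was lowest on the array where miR-21 was highest. miR-17* gave 13.2, 15.3 and 15.8, or 0.462 ± 0.0380 of miR-17, and let-7b* gave 7.47, 10.3 and 15.1, or 0.0281 ± 0.00534 of let-7b.

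For 6 passenger strands the guide was not detected on any array, although the asterisk was given to the strand thought to be the rarer. miR-135a* was the brightest of all 14 at 122, 124 and 89.7, followed among these 6 by miR-150* at 54.8, 51.1 and 40.5, miR-1914* at 37.2, 36.1 and 32.7 and miR-1226* at 15.3, 14.5 and 6.20. miR-191* and miR-32* were the dimmer ones, and all 6 were dimmer on each array than the brightest viral name, which is given further on. In order of signal the 6 brightest of all 14 were miR-135a*, miR-21*, miR-150*, miR-1914*, miR-17* and miR-1226*. miR-877* had its guide detected on 1 array.

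Both arms named 5p and 3p were members for 8 hairpins. The 5p arm was brighter in 5 of them, most in miR-1225 at 49.0 ± 2.02 times the 3p arm, then miR-199a at 8.02 ± 3.90, miR-1224 at 6.35 ± 1.05, miR-483 at 5.99 ± 1.89 and miR-423 at 3.97 ± 1.20. The 3p arm was brighter in miR-151, where the ratio of 5p to 3p was 0.133 ± 0.0419. In miR-574 (0.817 ± 0.0771) and miR-125a (0.866 ± 0.313) the arms were close, and for miR-125a the spread took in equality.

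The signals of members and of names just outside overlapped. The 5 dimmest members were miR-106b* at 2.39, 3.81 and 3.26, miR-1236 at 2.44, 4.50 and 2.85, miR-30b at 3.16, 3.96 and 4.31, miR-1224-3p at 3.47, 5.16 and 3.11 and miR-181a-2* at 5.23, 4.91 and 2.82. Just outside were names detected on 2 of 3 arrays, whose means over the arrays that detected them ran from 2.57 to 8.39, and the 5 highest of them were let-7e at 3.96 and 12.8, miR-371-5p at 8.33 and 7.70, miR-516a-5p at 7.51 and 8.03, miR-1183 at 4.68 and 10.6 and miR-30a* at 9.54 and 5.59. The means of these 5, from 7.56, lay above the mean of each of the 5 dimmest members, 3.15 to 4.32. Of the 20 names on 2 arrays, 11 were missed by replicate 1, 9 by replicate 3 and none by replicate 2.

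The array also carries viral microRNAs, which give a level for names not expected from this line. Of 88 viral names 10 were detected on all 3 arrays (11.4%, beside 19.4% of human names). The brightest, kshv-miR-K12-3 of a herpesvirus, gave 291, 273 and 227, and only 28 members had a higher mean. ebv-miR-BART19-3p gave 159.8, 167 and 115, hiv1-miR-H1, of the virus from which lentiviral vectors derive, 73.1, 84.5 and 73.9, and the dimmest, kshv-miR-K12-10b, 10.9, 11.2 and 5.89. On every array, 26 members exceeded every viral name, 21 of them among the 156 without the entries set aside, and these 21 held 73.0 ± 1.14% of the signal. Dimmer members such as miR-155 lay in the range of the viral names, and miR-18a and miR-34a, with means of 9.03 and 8.57, lay below the lowest viral mean of 9.31. How much of such signal is unspecific was not tested.

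Differences between replicate 3 and the other arrays varied with base composition. On replicate 3, 82 of the 165 members were higher than the mean of the other 2 arrays, and the median log2 difference was -0.0038, so about as many members were higher as lower. The summed signal of the 156 members was 25530, 26583 and 23275 on replicates 1, 2 and 3, and thus lowest on replicate 3. Across the 138 members with a sequence, this difference correlated with GC content at r = -0.39 (Spearman's rho = -0.42). Over the 82 sequenced members among the 100 brightest r was -0.57 (rho = -0.58). Between replicates 2 and 1 it was -0.04 over the same 138. Members are not independent replicates, and these correlations are descriptions across members of 1 array against the others.

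By GC content, the 16 members up to 40% had a median log2 difference of 0.20, and 11 of them were higher on replicate 3. The 53 members from 40% to 50% had a median of 0.16, with 37 higher. It was -0.11 for the 27 from 50% to 60%, with 10 higher, and -0.14 for the 42 above 60%, with 14 higher. Mean log2 signal itself was unrelated to GC content (r = 0.03 over 138 members).

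A run of 4 guanines (GGGG, searched on the mature strand, overlaps counted once) occurred in 14 of the 138 sequences, or 10.1%. Among the 2370 human mature names of RefSeq that were open to matching, 278 held it, or 11.7%. Many of these names are not on the array, so the percentages cannot show whether the run was common among detected names. The run can be seen in miR-1202, miR-1275, miR-1225-5p and miR-1268 printed above, and the 14 held 17.9 ± 1.23% of the signal. All 14 were lower on replicate 3 than on the mean of the others, with a median log2 difference of -0.60. They included miR-155, at 37.5% GC, and miR-361-5p, at 45.5% GC, whose differences were small. Of the 124 members without the run 52 were lower, and their median difference was 0.09. Of the 10 viral names 9 were lower on replicate 3, with a median of -0.37. The lower values of miR-638 and miR-1275 and the higher ones of miR-21 and let-7b on replicate 3 thus stood beside a difference by base composition over all members, and the part of that difference in these values was not tested.

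**Figure D5:**
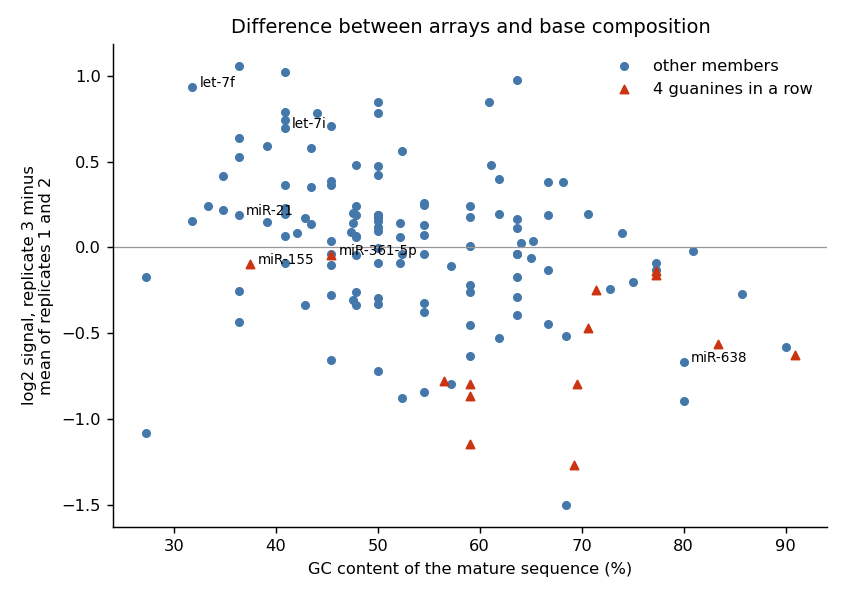
Difference in log2 signal between replicate 3 and the mean of replicates 1 and 2 against GC content (%) of the mature sequence, 1 point for each of 138 members, with triangles for the 14 that hold 4 guanines in a row. All 14 triangles lie below 0, and the whole cloud slopes down with GC content (r = -0.39).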

How the data were processed

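MicroRNAs were measured on 1-colour Agilent human arrays in SUM159 cells, and the 3 arrays titled control without metformin were used. For every name the deposited files give a total gene signal, which per the file headers is a linear intensity, together with its stated error and a detection flag. Undetected names hold 0.1. The scanner output came from Agilent Feature Extraction 9.1 (submitters' processing notes), and how background was handled is not stated in the sources used here. Per the labels, the labelling protocol describes a kit for messenger RNA although the features are microRNAs. The series matrix of the authors holds log2 values for 221 names, among them 164 of the 165 members, which it leaves in the order of the array signals (Spearman's rho = 1 on each array), with its normalization unstated.

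Members, the lists of lineages, clusters and reassigned entries and the alternatives were chosen with earlier results of these data known. Signals were left unscaled, shares were taken within each array over the 156 members that are not on the list of reassigned entries, and ranks follow the mean log2 signal. Sequences were matched to RefSeq (GRCh38.p14) by the same name for 49 members and by arm or later name, from a hand-written map, for 89. The other 27 were left without a match. Some RefSeq names were left out before matching, so a missing match does not mean that RefSeq lacks the microRNA. The text names the 30 brightest members, the 5 dimmest, the 5 highest names on 2 of 3 arrays, the members of the 10 largest seed families and clusters (up to 6 each), detected and undetected list members, the 6 brightest passenger strands and the 5 steadiest and 5 least steady of the 100 brightest. Scripts ran in Python 3.11.15 with numpy 2.4.6, pandas 2.3.3 and matplotlib 3.10.9 and were checked on simulated data. Alternatives changed the detection rule, the denominator, the scale, the summary over arrays and the arrays used. The 9 arrays of the other groups were not used here.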

Additional observations from a re-analysis of the deposited data

Results flagged for a closer look

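Outside the human names, 10 of 88 viral names were detected on all 3 arrays of cells that no label describes as infected with these viruses. They stand here because they are signal in names that the account of the human repertoire does not use, and no blank array was used here. The brightest, kshv-miR-K12-3, had a mean signal of 264 ± 33.1 (SD, n = 3), and 28 members had a higher mean. Whether these signals come from unspecific binding was not tested.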

How the results depend on the processing

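The number of members was 165, and it was 185 with detection on at least 2 arrays, 212 on at least 1, 165 with signals above 3 times their error, 164 in the series matrix and 165 to 176 with 1 array left out. The share of the 10 brightest, 55.5%, was 89.5% with the reassigned entries kept, 53.3% with only miR-923 left out, 60.2% from the series matrix and 46.0% without miR-494, an alternative chosen after seeing the data. The mean number of members that reached 50% of the signal, 8.33, was 1 with the reassigned entries kept, 9 with only miR-923 left out, 7 from the series matrix and 12 without miR-494. The passenger strand share, 1.53%, was 0.288%, 1.34%, 1.23% and 1.96% under the same 4 alternatives. The median coefficient of variation, 12.9%, ran from 5.39% without replicate 3 to 15.7% without replicate 2. For the 10 largest seed families and clusters, 34 and 27 values moved under the alternatives by more than 1 SD over arrays, each time under another denominator, in the series matrix or, for the miR-320 family, with miR-320a counted by name (3.30% against 2.91%, also chosen after seeing the data). miR-494, at 21.9%, was 4.12% with the reassigned entries kept, 19.2% with only miR-923 left out and 20.5% in the series matrix, and 21.5% to 22.4% with 1 array left out. Of 180 ranks of the 30 brightest under the alternatives, 77 differed from the rank given and 15 by more than the SD of the member's rank over arrays. Of 112 list counts 9 differed, each by 1 name: miR-133a (striated muscle), miR-196a (HOX gene clusters) or miR-513c (X-linked testis cluster). Quantile normalization and the median over arrays moved no share beyond the SD. Where entries were kept or left out, the sum changed, and so did the set from which the brightest members were taken. Why values differed in the series matrix was not tested. The lowest detected signals, 1.89 to 2.51 by array, limit what can be called not detected.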
